A study of Mus musculus with 6 samples.

Results

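The core autophagy machinery was described as 49 genes: the kinases, lipid transfer proteins, conjugation enzymes, tethers and fusion proteins that build an autophagosome and join it to the lysosome, with 2 transcription factors of the FOXO family. The genes were chosen by name and role, by a rule that used no measured value, though with earlier results of these data known. All 49 were among the 34789 gene names on the arrays, with 69 probes, Epg5 as 5430411K18Rik and Atg101 as 9430023L20Rik. Of the 49, 48 were detected (called well above background by the scanner software) on 1 array or more and 47 on every array, against 19148 and 15088 of all gene names. Atg4a, a protease that processes ATG8 proteins, was not well above background on any array, and Atg9b, a paralogue of the lipid scramblase Atg9a, only on the control array.

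The RNA came from mProx24, a mouse proximal tubular cell line derived from the strain C57B6, and was hybridised to single-colour Agilent arrays with 1 array for each of 6 conditions. The control, high glucose and high FFAs (free fatty acids) cultures were kept at 20% oxygen. The hypoxia, triple stimuli and triple stimuli with rapamycin cultures were kept at 1% oxygen, for 12 h per the labels. High FFAs and both triple cultures received 150 µM palmitate bound to 0.15% bovine serum albumin for 9 h, both triple cultures also received high glucose, and the last culture had 12 h of rapamycin at 0.4 µg/ml ahead of palmitate. All cultures shared the same cell line and basal medium, and the sources used here give neither the glucose concentrations nor the vehicle of rapamycin. The array labelled high glucose in its scanner file held the values that the deposited value table lists under high FFAs, and the reverse. These are called array A (high glucose in the scanner file) and array B (high FFAs in the scanner file), and neither was assigned to a stimulus.

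Autophagy encloses cytoplasm in a double membrane and delivers it to the lysosome. The kinase mTORC1 restrains the ULK kinase complex that starts the process, and rapamycin inhibits mTORC1. Once released, the ULK complex activates a class III PI3-kinase complex, whose lipid product PI3P recruits membrane proteins to the growing phagophore, ATG8 proteins are coupled to lipid there, and tethers, SNARE proteins and the HOPS complex drive fusion with the lysosome. In the proximal tubule the process is known for clearing damaged mitochondria and lysosomes. Much of its control acts on protein activity and location, which RNA levels do not measure.

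Rapamycin, low oxygen and nutrient stress also act on transcription factors that read short promoter words, so promoter sequences from RefSeq (GRCm38.p6) were searched on both strands from 250 bases before to 50 bases after each start site. Windows were found for 39 of the 49 genes, 44 windows in all. The E-box core CACGTG, which TFEB and related factors bind, was in 6 of 44 windows (13.6%), against 7.15% of 32851 windows of all genes. The 2 members with a pair of E-box cores, Atg3 and Vps33a, the E1-like enzyme Atg7, and Atg9a, which had the largest difference of any member in hypoxia, are shown 5′ to 3′ on their own strand. Capitals mark the E-box core in the upper 3 sequences and, in Atg9a, CACGT, the reverse complement of ACGTG, the core read by hypoxia-inducible factors (HIF).
Atg3, chr16:45158719-45158788, plus strand: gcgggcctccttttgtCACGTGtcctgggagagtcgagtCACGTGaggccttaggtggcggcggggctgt
Vps33a, chr5:123573016-123573075, minus strand: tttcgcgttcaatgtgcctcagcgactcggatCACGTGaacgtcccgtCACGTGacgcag
Atg7, chr6:114670936-114671005, plus strand: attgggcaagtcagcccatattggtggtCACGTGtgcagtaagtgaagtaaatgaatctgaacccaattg
Atg9a, chr1:75192101-75192240, minus strand: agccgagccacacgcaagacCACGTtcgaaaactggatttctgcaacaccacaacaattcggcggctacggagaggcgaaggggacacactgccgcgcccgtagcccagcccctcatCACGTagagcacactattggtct

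The shorter HIF core ACGTG was in 18 of 44 windows (40.9%), against 19.6% of all windows. It also lies inside CACGTG, so the 18 include the 6 windows with CACGTG. The windows of all genes were not limited to genes detected here, and shares among detected genes were not counted. The FOXO word GTAAACA and the ATF4 word TGATGNAAT were in 0 of 44 windows, against 3.65% and 0.965% of all windows. In hypoxia 9 of the 17 measured members with ACGTG and 11 of the 20 without it were above control, with medians of 0.01 and 0.02 on the log2 scale. With rapamycin 4 of the 6 members with CACGTG and 22 of the 31 without it were above triple stimuli alone. Members with and without each word overlapped in both comparisons, and a match of letters is not a binding site.

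Levels are log2 of the processed signal relative to the 75th percentile of its own array over non-control spots, so a level of 0 equals that percentile. They are compared between arrays for the same probe and not between genes, except that the sums over cell markers add levels of several genes. Each gene was represented by its brightest probe. A difference is one array minus another on the log2 scale, and it was called at 2-fold (a log2 difference of 1) and at the looser 1.5-fold (0.585). Since each condition had 1 array, no difference has a replicate check and no test or p-value is given. The error given beside a difference is 1 SD of the scanner software's own error model, which covers spot measurement and not the spread between cultures, and the SD of replicate spots of a probe within an array had a median of 0.0598 to 0.0699.

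Between 40.3% and 43.8% of 59305 spots were well above background and 0 were saturated. By the array positions in the deposited files' names, the only source for them, the 3 arrays at 20% oxygen lay in one row of the slide and the 3 at 1% oxygen in the other. If so, the effects of slide position and of oxygen cannot be told apart. Of 13 proximal tubule markers, 5 were well above background on all 6 arrays (Lrp2, Cubn, Aqp1, Ggt1 and Mme) and 7 on none, including the transporters Slc34a1, Slc5a2 and Slc5a1 and the transcription factor Hnf4a. Summed over the 13 markers, the linear level was 22.7 on control, 25.2 on array B and 24.2 in hypoxia. It was 13.1 on array A, 12.2 under triple stimuli and 9.46 with rapamycin. The sum was mostly that of Lrp2 and Aqp1, with control levels of 3.53 and 3.20. Those of Cubn, Mme and Ggt1 were -0.15, -0.84 and -2.19. Ggt1 was higher than on control, by 0.69 on array A and 0.76 under triple stimuli, and Cubn differed by -0.22 and 0.03. Of 23 markers of other cell types, 16 were on no array and Kdr, Itgam, Cd3e and Aqp2 on all 6, and their summed level lay between 18.2 and 22.5 on the 6 arrays. In bulk RNA, fewer cells of a kind and less RNA per cell cannot be told apart.

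The autophagy genes varied over the 6 conditions about as much as all genes did. The range of a member over the 6 arrays had a median of 0.45, from 0.17 in the protease gene Atg4c to 1.38 in the transcription factor Foxo3, and the median range of all genes was 0.50. For 28 of 47 members the highest and lowest arrays were less than 1.5-fold apart (61.1% of all genes), and for 4 they were at least 2-fold apart (11.5% of all genes). These 4 were Foxo3, Epg5, Wdr45 and Wipi1. The array with rapamycin held the highest level for 15 of 47 members (14.9% of all genes) and the lowest for 3 (26.5% of all genes).

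**Figure D1:**
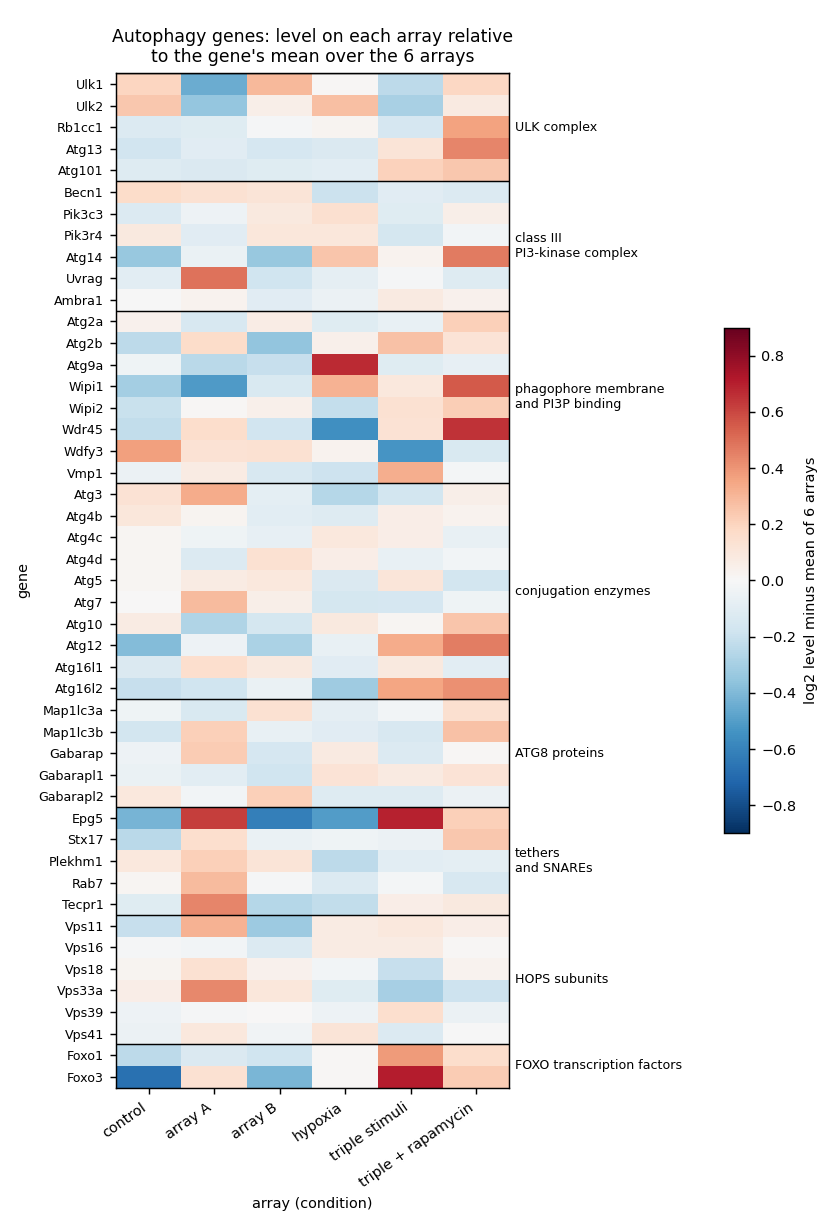
Level of the 47 autophagy genes measured on all 6 arrays, as log2 level minus the gene's own mean over the 6 arrays (colour, red higher and blue lower), by array (columns) and role (blocks of rows). Most cells are pale, and the strong colours are those of Epg5 and Foxo3, of Atg9a on the hypoxia array and of Wdr45 on the array with rapamycin.

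Of the 5 comparisons, 4 used the same control array and 2 the same triple stimuli array, so their values are not independent. Under triple stimuli, 2 of 48 members were at least 2-fold higher than control (5.09% of all genes) and 0 were lower (1.74% of all genes). At 1.5-fold, 4 were higher (11% of all genes) and 1 was lower (7.7% of all genes). In hypoxia, 0 of 48 members differed 2-fold in either direction (4.41% of all genes were higher and 0.461% lower). At 1.5-fold 4 were higher (8.06% of all genes) and 0 lower (3% of all genes), and with another background correction (normexp) all 4 of these fell under 1.5-fold. Of 47 members detected on both arrays, 27 were above control under triple stimuli (47.8% of all genes) and 26 in hypoxia (46.1%).

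On array A, 1 of 48 members was at least 2-fold higher than control (1.57% of all genes) and 0 were lower (0.903%), while at 1.5-fold 2 were higher (5.89%) and 2 lower (4.62%). On array B, 0 members differed 1.5-fold (1.74% of all genes were higher and 1.47% lower) or 2-fold (0.308% and 0.28%), and their differences lay between -0.23 and 0.26. On array A 30 of 47 members were above control (49.1% of all genes) and on array B 28 (58.1%). With rapamycin against triple stimuli alone, 0 of 47 members differed 1.5-fold in either direction (4.15% of all genes were higher and 4.93% lower), and so 0 differed 2-fold (1.94% and 2.14%). Of the 48 members compared, 10 were 1.5-fold different in at least 1 comparison and 38 in none, and Atg4a was not compared. The members' shares past 1.5-fold and 2-fold were near or below those of all genes. In the first 64 rows of spots, 21.4% of 3103 genes differed 1.5-fold with rapamycin in either direction, against 6.38% in the other rows. The 6 members whose brightest probe lies there were Becn1, Atg2a, Wdfy3, Vmp1, Vps11 and Vps18. The shares and percentiles of all genes include those rows, and the part of position was not tested.

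**Figure D2:**
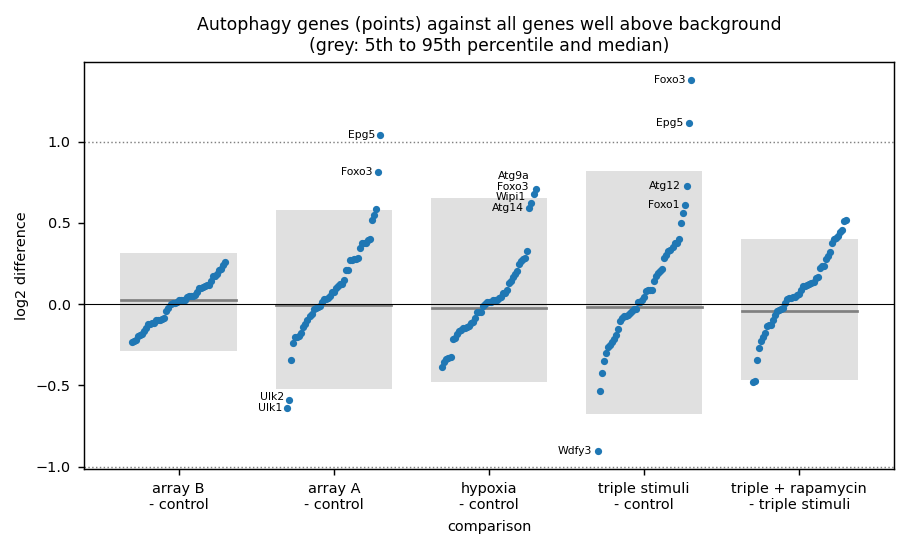
Log2 difference of each autophagy gene (points, ordered by size) in the 5 comparisons, with the 5th to 95th percentile (grey box) and median (grey line) of all genes detected on both arrays, and dotted lines at 2-fold. Named points are at least 1.5-fold different. Foxo3 and Epg5 under triple stimuli and Epg5 on array A lie past 2-fold, and no point of the rapamycin comparison is past 1.5-fold.

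The rapamycin difference was small and more often positive than negative among the members. Of 47, 31 were above 0 and 16 below, against 42.9% of all genes above 0, and the median was 0.06 against -0.04 for all genes measured on both arrays. The values ran from -0.48 for Foxo3 to 0.52 for Wdr45. By role, 5 of 5 members of the ULK complex were above 0, 3 of 6 of the class III PI3-kinase complex, 6 of 8 of the phagophore membrane proteins, 6 of 10 conjugation enzymes, 5 of 5 ATG8 proteins, 6 of 11 fusion genes and 0 of 2 FOXO genes. The 5th and 95th percentiles of all genes were -0.46 and 0.40, and 6 members lay above the upper one and 2 below the lower one. The 6 were Wdr45, Rb1cc1, Wipi1, Atg14, Ulk1 and Map1lc3b, and the 2 were Foxo3 and Epg5.

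**Figure D3:**
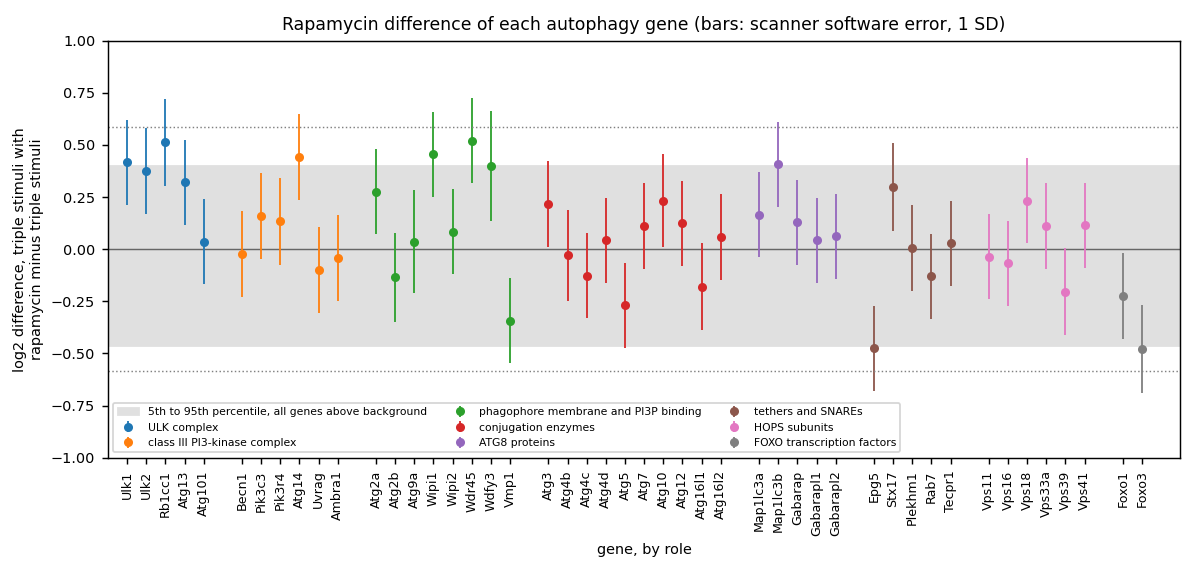
Log2 difference of triple stimuli with rapamycin minus triple stimuli for 47 autophagy genes (points, coloured by role), with bars of 1 SD of the scanner software's error on each side, the 5th to 95th percentile of all genes (grey band) and dotted lines at 1.5-fold. The 5 ULK complex genes lie above 0, Wdr45 is highest at 0.52, and Foxo3 and Epg5 are lowest at -0.48.

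The ULK complex, which receives the mTORC1 signal, was lower for its 2 kinases on array A and under triple stimuli and higher with rapamycin. Ulk1, the main kinase (probe chr5:111213514-111213573 in mm9), had levels of 4.33 on control, 3.69 and 4.42 on arrays A and B, 4.14 in hypoxia, 3.90 under triple stimuli and 4.32 with rapamycin added. Array A and triple stimuli were thus the 2 lowest arrays, and the array with rapamycin was level with control. The proximal tubule markers Lrp2, Aqp1 and Mme were also lower than on control, with differences of -0.68, -1.19 and -0.74 on array A and of -1.10, -0.93 and -0.94 under triple stimuli, and Ggt1 was higher, with 0.69 and 0.76. The part of these cell markers in the results on array A and under triple stimuli was not tested. The Ulk1 difference was -0.64 (error 0.204) on array A, -0.43 under triple stimuli and 0.42 (error 0.204) with rapamycin, the last larger than that of 95.4% of all genes.

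Its paralogue Ulk2 (chr11:61591022-61591081) was likewise lowest on array A and under triple stimuli, with 0.89 on control, 0.30 and 0.70 on arrays A and B, 0.92 in hypoxia, 0.35 under triple stimuli and 0.73 with rapamycin. The difference was -0.59 on array A, -0.53 under triple stimuli and 0.37 with rapamycin. A second Ulk2 probe gave -0.47, -0.66 and 0.74 in these 3 comparisons, the same directions. Array A's call for Ulk2 at 1.5-fold was lost with another background correction and with the mean over its probes, while that for Ulk1 held under all 9 alternatives of processing.

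Rb1cc1, the scaffold that holds the complex together (chr1:6265434-6265493), had levels of -0.10, -0.09, 0.01, 0.04 and -0.13 on control, arrays A and B, hypoxia and triple stimuli, and 0.38 with rapamycin. The array with rapamycin stood above 5 similar ones. Its rapamycin difference of 0.51 (error 0.209) was larger than that of 97.2% of all genes, but a second Rb1cc1 probe gave 0.02. The adaptor Atg13 was 0.32 and its partner Atg101 0.04 higher with rapamycin, and both were already higher under triple stimuli than on control, by 0.29 and 0.33. The count of 5 of 5 ULK complex genes above 0 with rapamycin was the same under all 9 alternatives.

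Of the class III PI3-kinase complex, only the subunit that directs it to the phagophore, Atg14, reached 1.5-fold in a comparison. Atg14 (chr14:48160711-48160770) had levels of 0.22 on control, 0.50 and 0.22 on arrays A and B, 0.81 in hypoxia, 0.59 under triple stimuli and 1.03 with rapamycin. The 3 arrays at 1% oxygen were the 3 highest, and rapamycin the highest of all. The difference was 0.59 (error 0.206) in hypoxia, a call lost with another background correction and in the deposited value table, and 0.44 with rapamycin. Uvrag, which takes the place of Atg14 in the endosomal form of the complex, was 0.58 higher on array A, just short of 1.5-fold, and between -0.09 and 0.08 from control in the other 3 comparisons.

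The other subunits varied less. Becn1, the scaffold Beclin 1, was between 1.72 and 1.76 on the 3 arrays at 20% oxygen and lower on the 3 at 1%, down to 1.40 in hypoxia, a difference of the means of -0.28. The catalytic subunit Pik3c3, its partner Pik3r4 and the regulator Ambra1 had ranges over the 6 arrays of 0.27, 0.27 and 0.18, all under 1.5-fold.

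Among the proteins of the phagophore membrane, the PI3P-binding protein Wipi1 and its relative Wdr45 had the widest ranges. Wdr45 (chrX:7305017-7305076) had levels of 2.29 on control, 2.67 and 2.34 on arrays A and B, 1.96 in hypoxia, 2.64 under triple stimuli and 3.16 with rapamycin. Hypoxia was lowest and rapamycin highest. The rapamycin difference of 0.52 (error 0.204) exceeded that of 97.3% of all genes, and a second Wdr45 probe gave 0.43. In hypoxia the probes gave -0.33 and -0.52.

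Wipi1 (chr11:109435140-109435199) had levels of 0.52, 0.32 and 0.69 on control, array A and array B, and of 1.14 in hypoxia, 0.92 under triple stimuli and 1.38 with rapamycin. All 3 arrays at 1% oxygen were above all 3 at 20%. The difference was 0.62 (error 0.206) in hypoxia and 0.45 with rapamycin. The other 2 Wipi1 probes gave 0.67 and 0.31 with rapamycin but -0.07 and 0.16 in hypoxia. The mean over the 3 probes in hypoxia was 0.24, so the hypoxia difference rested on the brightest probe. The other 2 probes lie in the first 64 rows of spots and the brightest does not. In those rows 16.8% of genes differed 1.5-fold in hypoxia, against 9.90% elsewhere, and the part of position was not tested.

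Atg9a, a lipid scramblase carried on the vesicles that seed the phagophore (chr1:75184260-75184319), was high on 1 array. Its levels were -1.27 on control, -1.47 and -1.43 on arrays A and B, -0.56 in hypoxia, -1.34 under triple stimuli and -1.30 with rapamycin. The hypoxia difference of 0.71 (error 0.223) was the largest of any member in that comparison, whereas triple stimuli, which also had 1% oxygen, differed from control by -0.07. With another background correction the hypoxia difference was 0.52, under the 1.5-fold line.

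Wdfy3, a large PI3P-binding adaptor for protein aggregates (chr5:102263025-102263084), was the only member at least 1.5-fold lower under triple stimuli. It had levels of -0.68 on control, -0.91 on arrays A and B, -1.01 in hypoxia, -1.58 under triple stimuli and -1.18 with rapamycin. The difference under triple stimuli was -0.90 (error 0.252), a second probe gave -0.68, and with another background correction it was -0.51. With rapamycin the probes disagreed, at 0.40 and -0.40. The brightest Wdfy3 probe lies in the first 64 rows of spots, where 25.8% of genes differed 1.5-fold under triple stimuli against 17.2% elsewhere; the part of position in its value was not tested.

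The remaining genes of this step stayed under 1.5-fold in every comparison. The lipid transfer protein Atg2b was 0.50 higher under triple stimuli and 0.40 on array A, and its paralogue Atg2a was 0.28 higher with rapamycin. Vmp1, a scramblase of the endoplasmic reticulum, was 0.38 higher under triple stimuli and 0.34 lower once rapamycin was added. The probes of Atg2a and Vmp1 also lie in the first 64 rows of spots, and the part of position was not tested. Wipi2 was 0.33 higher under triple stimuli, with 0.73 for its second probe.

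**Figure D4:**
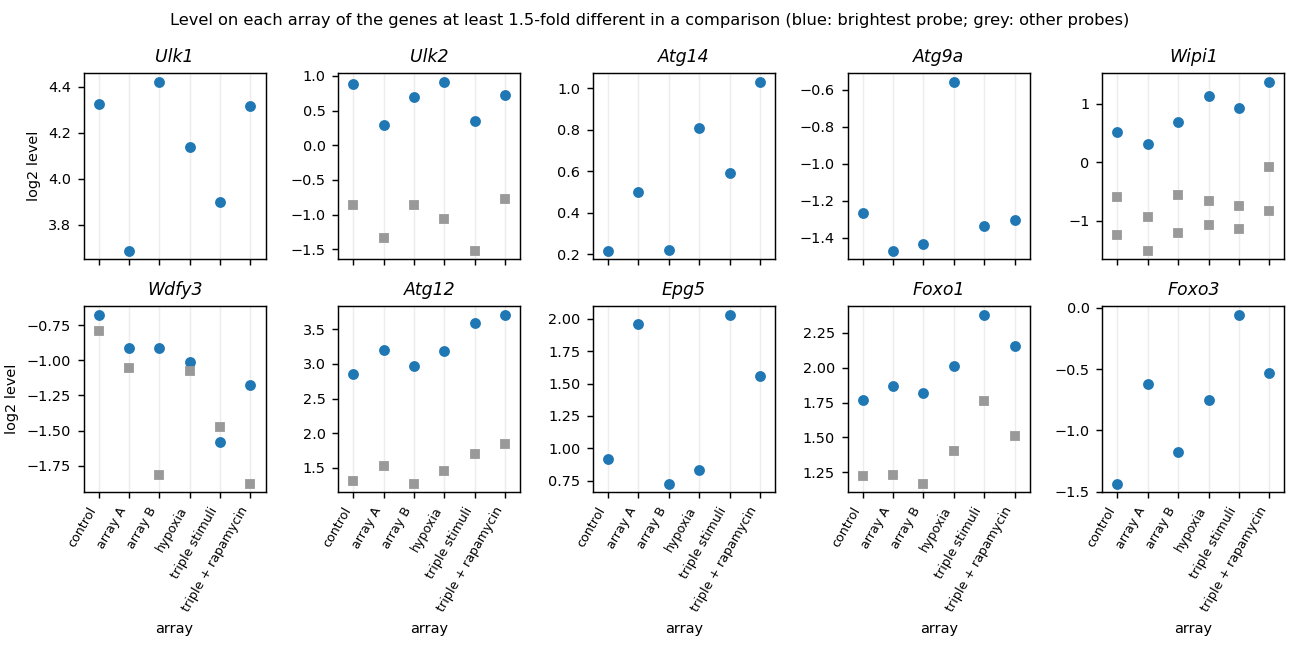
Log2 level on each of the 6 arrays of the 10 autophagy genes at least 1.5-fold different in some comparison, by gene (panels, each with its own scale). Blue circles are the brightest probe and grey squares the other probes well above background on all 6 arrays. Epg5 is near 2 on array A and under triple stimuli and under 1 on control, array B and hypoxia, and Foxo3 is highest under triple stimuli.

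The conjugation enzymes, which couple ATG12 to ATG5 and ATG8 proteins to lipid, had 1 member past 1.5-fold. Atg12, the ubiquitin-like protein itself, had levels of 2.86 on control, 3.20 and 2.96 on arrays A and B, 3.18 in hypoxia, 3.58 under triple stimuli and 3.71 with rapamycin. Both triple arrays were the highest. The difference under triple stimuli was 0.73 (error 0.204), and a second probe gave 0.39, so that the mean over both, 0.56, was under 1.5-fold. Atg5, the conjugation partner of Atg12 (chr10:44083997-44084056), had levels of 3.04, 3.09, 3.11, 2.89 and 3.12 on the same arrays in that order. With rapamycin it was 2.85, a rapamycin difference of -0.27.

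Just under the 1.5-fold line, Atg16l2, a paralogue of the scaffold Atg16l1, was 0.56 higher under triple stimuli, and its second probe gave 0.57. Both triple arrays, at 1.52 and 1.58, stood above the other 4, which lay between 0.85 and 1.10. The E2-like enzyme Atg3, whose promoter holds a pair of E-box cores, was 0.39 lower in hypoxia and 0.30 lower under triple stimuli, and Atg7 was 0.28 higher on array A. Atg10, the E2-like enzyme for ATG12, was 0.34 lower on array A, with -0.33 for its second probe. The proteases Atg4b, Atg4c and Atg4d had ranges over the 6 arrays of 0.21, 0.17 and 0.26, and Atg16l1 one of 0.28.

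The 5 ATG8 genes, whose products mark autophagosomes and bind cargo receptors, had small differences in every comparison. Map1lc3b, which encodes the common marker LC3B (chr8:124121771-124121830), had levels of 4.46 on control, 4.84 and 4.56 on arrays A and B, 4.53 in hypoxia, 4.49 under triple stimuli and 4.89 with rapamycin. Array A and the array with rapamycin were the 2 highest. The differences were 0.38 on array A and 0.41 (error 0.204) with rapamycin, the latter larger than that of 95.2% of all genes.

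With rapamycin all 5 ATG8 genes were above 0, at 0.41 for Map1lc3b, 0.17 for Map1lc3a, 0.13 for Gabarap, 0.06 for Gabarapl2 and 0.04 for Gabarapl1. The last 4 were smaller than the error of about 0.20. A second Gabarap probe also gave 0.13. Under the mean over probes, 4 of 5 were above 0, since a further Gabarap probe gave -0.44. That probe was much dimmer, with a level of -1.69 under triple stimuli against 6.17 for the brightest. Under triple stimuli the 5 lay between -0.21 and 0.14.

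The fusion genes among the members were mostly higher on array A than on control. Of 11, 10 were above control, with a median of 0.27, against 49.1% of all genes above 0. With the mean over a gene's probes 9 were, without Stx17, whose other 2 probes were below control. SNARE genes outside the members, named after their values were seen, were lower on array A than on control. These were Snap29 at -0.20, Vamp8 at -0.19, Vamp7 at -0.26 and Ykt6 at -0.33. Among the 11 members the largest difference was that of Epg5, a tether on late endosomes and lysosomes. Its levels were 0.92 on control, 1.96 and 0.73 on arrays A and B, 0.84 in hypoxia, 2.03 under triple stimuli and 1.56 with rapamycin. Array A and both triple arrays were high, and the other 3 were low. The summed level of the proximal tubule markers, mostly that of Lrp2 and Aqp1, was lowest on array A and both triple arrays. Its part in the Epg5 differences was not tested. The Epg5 difference was 1.04 (error 0.205), or 2.06-fold, on array A, 1.11 or 2.16-fold under triple stimuli, and -0.48 with rapamycin. Epg5 had a single probe, and both higher values stayed past 1.5-fold under all 9 alternatives. With another background correction they were 0.93 each, under 2-fold.

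Tecpr1, a tether that binds ATG12 with ATG5, and Vps11, a core subunit of HOPS, were 0.55 and 0.52 higher on array A. Vps33a, the HOPS subunit that holds SNAREs and the other member with a pair of E-box cores, was 0.38 higher on array A and 0.35 lower under triple stimuli. The small GTPase Rab7 was 0.27 higher on array A and between -0.14 and -0.03 from control in the other 3 comparisons. The HOPS subunits Vps16, Vps18, Vps39 and Vps41 had ranges over the 6 arrays of 0.20, 0.34, 0.20 and 0.24, and Plekhm1, an adaptor between Rab7, HOPS and ATG8 proteins, had one of 0.45. Under triple stimuli 6 of 11 fusion genes were above 0, and in hypoxia 5 of 11.

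Stx17, the SNARE of the autophagosome (chr4:48198579-48198638), had levels of -0.22 on control, 0.17 and -0.03 on arrays A and B, -0.02 in hypoxia, -0.03 under triple stimuli and 0.27 with rapamycin. With rapamycin its 3 probes agreed, at 0.30, 0.44 and 0.42. Under triple stimuli they did not, since the brightest gave 0.19 and the other 2 gave -0.56 and -0.54. On array A the brightest gave 0.39 and the other 2 -0.22 and -0.30. The direction of Stx17 against control therefore depended on the probe.

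The 2 FOXO genes, whose products drive transcription of autophagy genes, were higher under triple stimuli. Foxo3 (chr10:41967288-41967347) had levels of -1.43 on control, -0.62 and -1.17 on arrays A and B, -0.75 in hypoxia, -0.06 under triple stimuli and -0.54 with rapamycin. Control was the lowest array and triple stimuli the highest. The Foxo3 difference was 1.38 (error 0.216), or 2.60-fold, under triple stimuli, larger than that of 98.5% of all genes, with 0.81 on array A, 0.68 in hypoxia and 0.26 on array B. With rapamycin the level was 0.48 lower than under triple stimuli alone, a difference below the 5th percentile of all genes. With another background correction the triple stimuli difference was 1.10, and that in hypoxia was 0.52, under 1.5-fold. A second Foxo3 probe was not well above background on any array.

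Foxo1 (chr3:52150183-52150242) had levels of 1.77 on control, 1.87 and 1.82 on arrays A and B, 2.01 in hypoxia, 2.38 under triple stimuli and 2.16 with rapamycin. The order was that of Foxo3 for the highest and lowest arrays, with smaller steps. Its difference under triple stimuli was 0.61 (error 0.204), 0.54 for a second probe, and with rapamycin -0.22 and -0.25. The mean over both probes and another background correction each brought the triple stimuli difference under 1.5-fold.

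Between the 3 arrays at 1% oxygen and the 3 at 20%, 6 of 47 members were higher on every array of the first set (9.92% of all genes) and 7 were lower on every array (16.1% of all genes). Higher were Atg101, Atg14, Wipi1, Gabarapl1, Vps16 and Foxo1. Lower were Becn1, Wdfy3, Atg7, Gabarapl2, Plekhm1, Rab7 and Vps33a. Only for Wipi1 was the difference of the means, 0.64, past 1.5-fold. These splits are those of the brightest probe. Another Wipi1 probe was at -0.66 in hypoxia and -0.75 under triple stimuli, below its -0.59 on control. The second probes of Wdfy3 and Atg7 did not split by oxygen either, whereas a further Wipi1 probe and the second Foxo1 probe did. By the array positions in the file names, the 2 sets of arrays also differ in slide row.

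Where several probes measured a member, the probes did not always have the same sign, and the same count over all genes was not made. Of 16 such members, the probes had the same sign for 11 with rapamycin, 11 under triple stimuli, 11 in hypoxia, 12 on array A and 10 on array B. The median gap between a member's probes was 0.10 to 0.15, against 0.15 to 0.20 for all genes with several probes.

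Other genes of the autophagy pathway, not among the members, were taken from a separate list. Of its 58 other core and accessory genes, cargo receptors, transcriptional regulators and kinase inputs, 54 were on the arrays. The 18 measured core and accessory genes had medians of -0.13 under triple stimuli, -0.18 in hypoxia and -0.11 on array A. Their medians were 0.03 on array B and 0.005 with rapamycin. Under triple stimuli 7 of 54 were at least 2-fold higher and 3 lower (5.09% and 1.74% of all genes). The 6 with the largest differences were the stress transcription factor Ddit3 at 2.95, the mitophagy receptor Bnip3 at 2.73, the mTORC1 inhibitor Ddit4 at 2.44, the cargo receptor Sqstm1 at 1.53, the mitophagy receptor Bnip3l at 1.49 and the stress transcription factor Atf4 at 1.17. The 3 lower ones, named after their values were seen, were Ei24 at -1.07, Trp53inp2 at -1.06 and Sesn1 at -1.01.

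In hypoxia 4 of the 54 were at least 2-fold higher and 0 lower (4.41% and 0.461% of all genes), namely Bnip3 at 3.14, Ddit4 at 2.29, Ddit3 at 2.02 and Bnip3l at 1.79. Array A had 2 of 54 higher and 0 lower (1.57% and 0.903% of all genes), Ddit3 at 2.83 and Sqstm1 at 1.34, and array B had 0 either way (0.308% and 0.28%). With rapamycin 0 of 53 differed 2-fold (1.94% of all genes were higher and 2.14% lower), and 2 were higher and 2 lower at 1.5-fold (4.15% and 4.93%). Those were, named after their values were seen, the receptors Ccpg1 and Calcoco1, 0.81 and 0.75 higher, Ddit4, 0.73 lower, and the mTORC1 inhibitor Tsc2, which was not well above background on the array with rapamycin. Under the 1.5-fold line, Sqstm1 and Bnip3 were 0.49 and 0.42 lower with rapamycin. The receptors Wdr81, Nbr1 and Tax1bp1 were 0.56, 0.47 and 0.30 higher, and the median of 13 cargo receptors was 0.07.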

How the data were processed

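Single-colour arrays were read with Agilent Feature Extraction 10.7.3.1, per the submitters' processing notes. Per the file headers, the authors' scanner files give a linear, background-subtracted signal intensity per spot, not scaled between arrays. The value table the authors deposited holds a ratio, the signal over its array's 75th percentile, as read from its values; its columns for high glucose and high FFAs hold each other's scanner values (SD of the log2 difference 2.87e-07 and 2.89e-07), and the other 4 match. Its column medians were 0.0505 for control, 0.0516 for high glucose, 0.0535 for high FFAs, 0.0562 for hypoxia, 0.0544 for triple stimuli and 0.0561 for triple stimuli with rapamycin.

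The log2 processed signal was reduced by the 75th percentile of non-control spots. Spots with an outlier mark on any array (683 spots of 323 probes) were left out, which lost 13 of 55681 probes. Spots were averaged per probe, and the probe brightest on average stood for a gene. A gene entered a comparison when detected (well above background) on either array, the dim side raised to the lowest such level of its array. Probe positions are those of the files (mm9), where exons and UTRs were not annotated here. Python 3.11.15, pandas 2.3.3, numpy 2.4.6 and limma 3.58.1 were used. The 2-fold call was tested on simulated data with changes larger than 2-fold, and the 1.5-fold call was not tested. The 49 members, the neighbouring pathway list and the cell type markers were chosen with earlier results of these data known. Levels on every array are given for members at least 1.5-fold different in any comparison and, in each step, the 2 with the largest rapamycin difference. Differences are given for pathway genes at least 2-fold different, at most 6 per comparison by size, and other pathway genes were named after their values were seen. The 9 alternatives covered background correction (normexp, offset 50), scaling, probes, outlier marks, dim probes, spot position and the value table; 1 more was added after seeing the data. There were no replicate cultures, and the number of arrays limits the precision.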

Additional observations from a re-analysis of the deposited data

How the results depend on the processing

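No paired analysis was possible because each condition had 1 array, and all 6 lay on 1 slide, so no slide block could be fitted either. Leaving out a replicate was likewise not possible. Of the counts and medians under the alternatives, 321 stayed within 1.5 times the reported count or 0.1 of the reported median and 18 did not; no called value changed direction. With normexp background correction (offset 50), 1 member was 2-fold higher and 0 were 1.5-fold lower under triple stimuli, 0 were 1.5-fold higher in hypoxia, 0 were 2-fold higher and 1 was 1.5-fold lower on array A, and 1 member was lowest on the array with rapamycin. With quantile normalization 1 was lowest there. With the mean over a gene's probes, 2 members were 1.5-fold higher and 2 lower under triple stimuli, 1 was 1.5-fold lower on array A and 1 on array B, and 6 were lowest with rapamycin. With no filter on dim probes, 1 was 1.5-fold lower with rapamycin, 1 was 2-fold and 2 were 1.5-fold lower under triple stimuli, and 1 was 1.5-fold lower in hypoxia and on array B. Without the first 64 rows of spots, chosen after seeing the data, 0 were 1.5-fold lower under triple stimuli, since Wdfy3 lies there. With no filter on dim probes, the added lower member was Atg9b, at -0.77 with rapamycin, -1.31 under triple stimuli, -0.61 in hypoxia and -0.91 on array B. Apart from these cases of Wdfy3 and Atg9b, the cause was not tested. Of 13 called gene values, Epg5 and Foxo3 on array A and under triple stimuli and Ulk1 on array A stayed past 1.5-fold under all 9 alternatives (the added one aside). Members above 0 with rapamycin numbered 28 to 33. Signal limits Atg4a and Atg9b, which were near background.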
